A study of Homo sapiens with 6 samples.

Results

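The tumour necrosis factor (TNF) superfamily ligands and their receptors were examined in RNA-seq of MDA-MB-231 cells, an established basal, triple-negative breast cancer line. Members were the rows of the deposited gene table with a symbol that starts with TNFSF or TNFRSF and a digit, or that is TNF, LTA, LTB, FAS, FASLG, CD40, CD27, CD70, LTBR, NGFR or EDAR. This rule found 61 of 24108 rows, which hold 44 family symbols, and 6 of these rows join a member with a further gene or another member. A total of 3 libraries came from cells that received the control hairpin shControl, directed at firefly luciferase, and 3 from cells that received shZnf148, directed at the zinc finger transcription factor ZNF148. Both groups were transduced with lentivirus for 48 h and kept in 0.5 µg/ml puromycin for 24 h, so both carry an integrated hairpin vector. No further genotype or treatment is given for either group. The comparison addresses which family members a cell line depleted of ZNF148 expresses at another level than its control.

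Family ligands are mostly trimeric proteins held in the cell membrane, some of which are cut off and act as soluble cytokines. Their receptors either carry an intracellular death domain, which recruits adaptors such as FADD and TRADD and can activate caspases, or bind TRAF proteins and activate the NF-kB transcription factors. Decoy receptors bind ligand without passing on a full signal. In breast tumours and other epithelia, epithelial cells carry several of the death receptors and CD40, while many of the ligands are made by T cells, B cells and myeloid cells.

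Expression values were FPKM, the number of sequenced fragments scaled by transcript length and by library size, and so a level per length. Changes were estimated with limma on log2(FPKM + 1) for the rows that averaged 1 FPKM or more across the 6 libraries. Here a row is described as risen or fallen only if it was called, which required a Benjamini-Hochberg adjusted p under 0.05 and groups that differed by over 1.5-fold. The added 1 FPKM shrinks the fold change of rows with low levels. Means are given ± SD over 3 libraries per group. The labels do not say whether replicates were separate cultures, so p-values measure the spread between these libraries, which may be technical.

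The targeted gene checked the labels. ZNF148 stood at 3.72, 4.36 and 4.30 FPKM in shControl replicates 1 to 3 and at 0.914, 0.282 and 0.834 FPKM in shZnf148 replicates 1 to 3, a fall of log2 -1.63 (SE 0.18, adjusted p = 0.00990). Without shControl replicate 1 or 3 its adjusted p was 0.0673 or 0.0653. The labels give 1 hairpin name for each arm, so an effect of the hairpin and of ZNF148 loss cannot be told apart. The library shZnf148 replicate 2 stood apart, being the highest or lowest of the 6 in 54.0% of all tested rows, where the other libraries were so in 23.3% to 34.5%. Among markers of the line, VIM, CD44, EGFR, KRT8, KRT18, CAV1 and AXL were all above 38 FPKM in every library. EGFR was called, falling from 66.6 ± 5.05 to 43.5 ± 4.97 FPKM. CD44, KRT18 and AXL were also lower (adjusted p = 0.0185, 0.02855 and 0.0364) but did not pass the fold threshold. VIM and CAV1 were lower and KRT8 higher without passing the adjusted p. The 7 markers summed to 3263 to 3411 FPKM in shControl and 2765 to 2821 FPKM in shZnf148. ESR1 was listed at 0 and PGR and CDH1 did not exceed 0.491 FPKM, but EPCAM, low by the marker list, stood at 7.996 to 11.1 FPKM, and ERBB2, joined with MIR4728, stood at 126 and 125 FPKM in replicate 2 of shControl and shZnf148 and at 20.1 to 24.8 FPKM in the other libraries. Of the markers of other cells, T and NK cell genes summed to at most 0.378 FPKM in any library, with CD2 and NKG7 listed at 0, and of the B and plasma cell genes MS4A1 was listed at 0. SDC1, a plasma cell marker that epithelia also express, fell from 37.2 ± 2.99 to 19.0 ± 2.10 FPKM. The 5 myeloid genes summed to 2.75 to 4.22 FPKM in shControl and 7.17 to 10.8 FPKM in shZnf148. Of these, 2 were called, both higher: CSF1R (adjusted p = 0.0402) and LYZ (adjusted p = 0.0267, tested only through its shZnf148 level, since shControl averaged 0.627 FPKM), while ITGAM and FCGR3A stayed under 0.08 FPKM. CD14, not tested because of its low mean, averaged 0.692 FPKM in shControl and 1.25 FPKM in shZnf148, with overlapping groups. In bulk RNA, fewer cells of a type and less RNA per cell cannot be told apart, and the part of these markers in the results below was not tested.

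Of the 61 member rows, 19 (31.2%) reached that mean and were tested, against 48.9% of all rows, and 16 reached 1 FPKM in all 6 libraries. The member share is lowered by 23 repeated rows of TNF, LTA and LTB, so it is not a share of family genes. Of the 35 ligand rows, 23 are rows of TNF, LTA and LTB, which were all listed at 0, and 4 of the other 12 were tested, beside 7 of 8 rows with a death domain receptor, 3 of 4 with a decoy receptor and 6 of 15 with another receptor (the joined TNFRSF10B/TNFRSF10D row counts as both death domain and decoy). The TWEAK receptor TNFRSF12A had the highest level, with a mean of 142 FPKM over the 6 libraries, above 95.5% of tested rows. TNFRSF21, TNFRSF10B/TNFRSF10D, CD40, TNFRSF1A and LTBR followed, at means from 97.8 down to 48.7 FPKM, while the median over all tested rows was 12.6 FPKM.

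**Figure D1:**
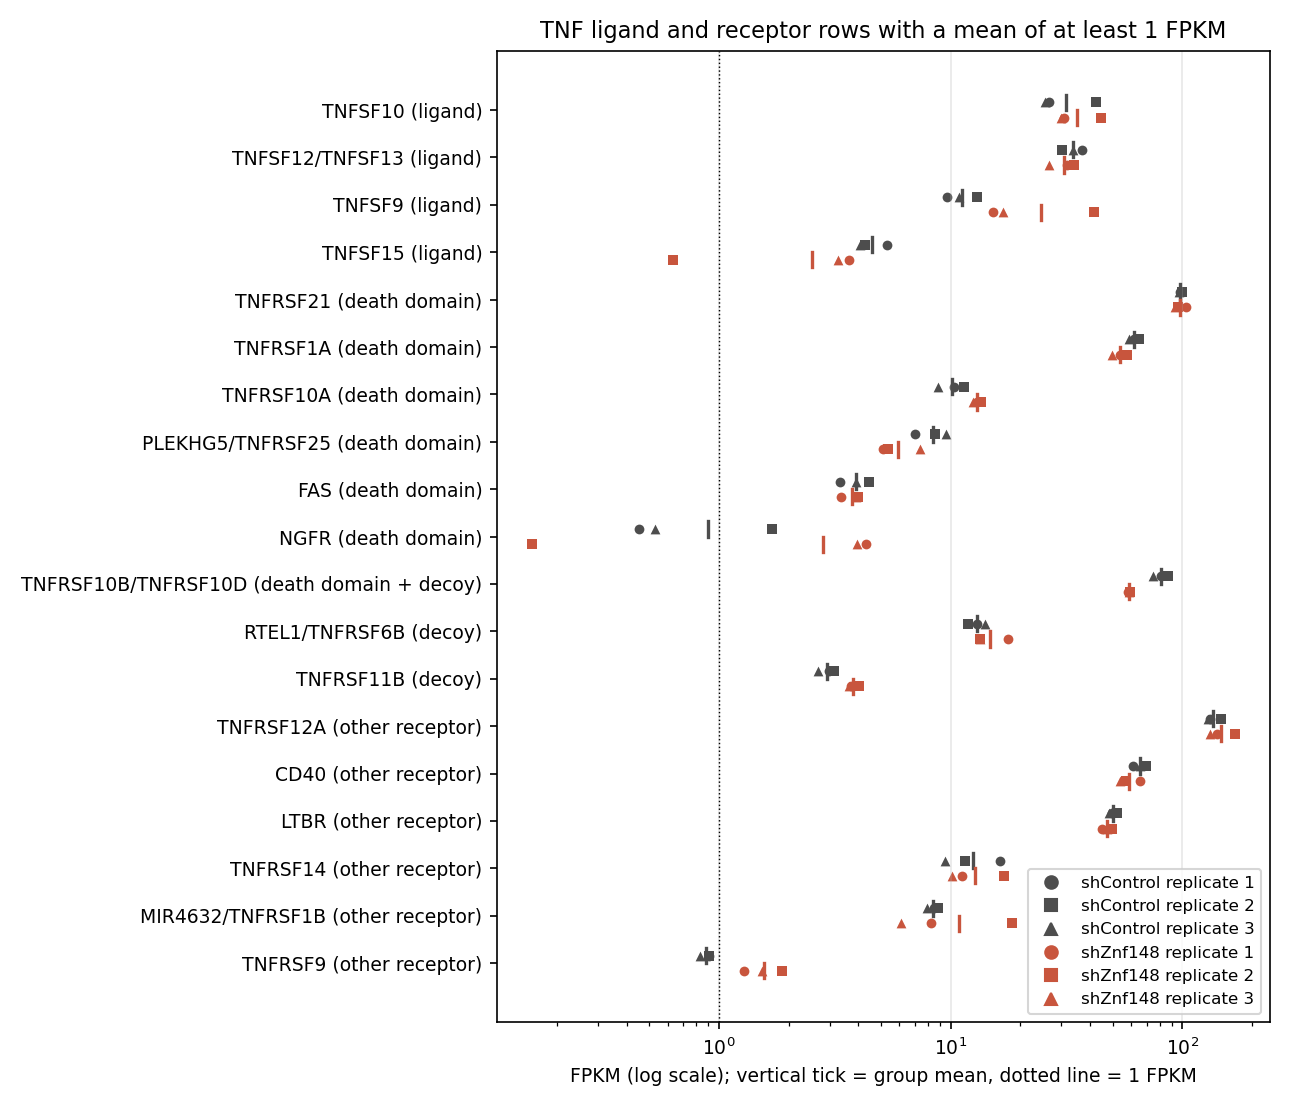
Levels of the 19 tested member rows in FPKM on a log axis, with a point per library (grey shControl, red shZnf148, shapes for replicates 1 to 3) and a vertical tick at each group mean. Receptors such as TNFRSF12A and TNFRSF21 lie near 100 FPKM or above and TNFRSF9 near 1, and shZnf148 replicate 2 (red squares) lies far from the other 2 shZnf148 libraries for TNFSF9, TNFSF15, TNFRSF1B and NGFR.

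None of the 19 tested member rows was called. Over all 11777 tested rows, 647 were called, which is 5.49%. At an adjusted p alone 1 member row passed, the lower TNFRSF10B/TNFRSF10D, against 13.6% of all tested rows. The groups did not overlap in 7 member rows (4 higher and 3 lower in shZnf148), against 41.0% of all tested rows, and an unadjusted p under 0.05 was reached by 7 member rows, against 33.8%. The member rows divided into 10 higher and 9 lower, with a median log2 fold change of 0.03, beside 0.0061 over all tested rows. Of the higher rows, 2 (TNFRSF9 and NGFR) averaged under 1 FPKM in shControl and were tested only through their shZnf148 level, so these counts are descriptions. The number of calls over all rows changed when 1 library was left out. It was 29, 201 and 22 without shControl replicate 1, 2 and 3. Without shZnf148 replicate 1, 2 and 3 it was 270, 561 and 566. The smaller number of libraries enters these fits by construction. The only member row called in any of them was NGFR, without shZnf148 replicate 2.

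Of the 4 tested ligand rows, TNFSF9 and TNFSF15 had the largest differences on the log2(FPKM + 1) scale, in opposite directions. TNFSF9, the ligand of the T cell costimulatory receptor TNFRSF9, stood at 9.67, 13.0 and 10.9 FPKM in shControl replicates 1 to 3 and at 15.2, 41.7 and 16.9 FPKM in shZnf148 replicates 1 to 3. All 3 shZnf148 libraries were above all 3 shControl libraries, and replicate 2 was far above the other 2. The log2 fold change was 0.94 (SE 0.36, 95% interval 0.08 to 1.79), with an adjusted p of 0.123 that did not pass. Without shZnf148 replicate 2 the log2 fold change was 0.49 and the adjusted p 0.0576.

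TNFSF15, a cytokine that binds TNFRSF25 and restrains endothelial growth, stood at 5.33, 4.28 and 4.07 FPKM in shControl replicates 1 to 3 and at 3.64, 0.632 and 3.25 FPKM in shZnf148 replicates 1 to 3. The groups did not overlap, and the lowest value was again that of shZnf148 replicate 2. Its log2 fold change was -0.80 (SE 0.39, 95% interval -1.73 to 0.13), with an adjusted p of 0.199. Leaving out that library gave a log2 fold change of -0.32 and an adjusted p of 0.150.

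The other 2 tested ligand rows had the highest ligand levels and overlapping groups. TNFSF10, the apoptosis-inducing ligand TRAIL, stood at 26.6, 42.2 and 25.5 FPKM in shControl and at 30.8, 44.7 and 29.8 FPKM in shZnf148 replicates 1 to 3, so that replicate 2 was the highest of each group. The difference between groups, log2 0.17 (SE 0.23, adjusted p = 0.639), was smaller than the spread within them. The joined row of TNFSF12 (the ligand TWEAK), TNFSF13 (the B cell ligand APRIL) and their readthrough TNFSF12-TNFSF13 stood at 30.3 to 36.9 FPKM in shControl and 26.7 to 33.95 FPKM in shZnf148 (log2 -0.13, SE 0.11, adjusted p = 0.459). A change of TNFSF12 alone cannot be read from this joined row.

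Promoter sequences are shown for TNFSF9 and TNFRSF9, a ligand and its receptor, and for the adhesion gene ICAM1, which fell (described with the pathway genes). TNFSF9 and TNFRSF9 were higher in every shZnf148 library, but neither was called, and groups did not overlap in 41.0% of all tested rows. TNFRSF9 passed the filter on low values only through its shZnf148 libraries. The sequences are the 250 bases before the annotated start of transcription in RefSeq (GRCh38.p14), each printed 5′ to 3′ on the strand of its gene. TNFSF9 lies on the plus strand at chr19:6530776-6531025, TNFRSF9 on the minus strand at chr1:7940840-7941089 and ICAM1 on the plus strand at chr19:10270870-10271119. Capitals mark matches, on either strand, to the NF-kB word GGAANTTCC or to GGGGCGGGG, a GC-rich word of the kind bound by zinc finger factors. All words were chosen after the values were seen.
TNFSF9: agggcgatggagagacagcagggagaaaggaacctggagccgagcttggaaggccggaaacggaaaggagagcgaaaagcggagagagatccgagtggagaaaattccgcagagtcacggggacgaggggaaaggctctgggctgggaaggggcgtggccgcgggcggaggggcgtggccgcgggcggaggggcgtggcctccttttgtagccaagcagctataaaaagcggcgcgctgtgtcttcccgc
TNFRSF9: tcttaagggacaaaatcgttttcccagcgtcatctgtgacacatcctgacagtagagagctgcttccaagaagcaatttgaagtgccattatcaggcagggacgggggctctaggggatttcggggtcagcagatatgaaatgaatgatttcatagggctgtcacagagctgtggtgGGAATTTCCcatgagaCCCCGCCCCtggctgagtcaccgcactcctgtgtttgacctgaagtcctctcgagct
ICAM1: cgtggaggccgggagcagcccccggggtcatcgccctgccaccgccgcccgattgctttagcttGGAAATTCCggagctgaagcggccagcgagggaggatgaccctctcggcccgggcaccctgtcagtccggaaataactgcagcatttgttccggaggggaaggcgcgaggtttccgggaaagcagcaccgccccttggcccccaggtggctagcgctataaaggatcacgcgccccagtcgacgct

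The TNFRSF9 promoter held GGAATTTCC from base -73 to -65 and the reverse complement of the GC-rich word, CCCCGCCCC, from base -57 to -49 relative to the start, with no overlap between them. ICAM1 held GGAAATTCC from base -186 to -178. The TNFSF9 promoter held neither word, and the third word searched, GGGAGGGG, was in none of the 3. GC content was 64.4% for TNFSF9, 51.6% for TNFRSF9 and 66.0% for ICAM1. RefSeq promoters, searched from 250 bases before to 50 bases after the start, were at hand for 28 of the member genes, with 37 promoters among them. GGAANTTCC was found in 1 of these genes (TNFRSF9) and in 0.965% of all 35116 promoters, GGGGCGGGG in 9 genes and 15.7% of all promoters, and the GC-rich GGGAGGGG in 7 genes and 14.6% of all promoters. The counts are of genes, which can have several promoters, while the shares are of single promoters, so they cannot be set against each other. A match is a description of the letters only.

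Among death domain receptors, the row that joins TNFRSF10B with TNFRSF10D had the smallest adjusted p of the family. TNFRSF10B is a death receptor for TRAIL, and TNFRSF10D is a neighbouring decoy for the same ligand. The row stood at 80.7, 86.8 and 75.0 FPKM in shControl replicates 1 to 3 and at 58.4, 59.3 and 58.7 FPKM in shZnf148 replicates 1 to 3. Every shZnf148 library was below every shControl library, and the 3 shZnf148 values differed by less than 1 FPKM. The means were 80.8 ± 5.92 and 58.8 ± 0.495 FPKM, a log2 fold change of -0.45 (SE 0.07, 95% interval -0.61 to -0.29). This passed the adjusted p of 0.0172 but, at 1.37-fold, not the fold threshold. The adjusted p was 0.0895, 0.0526 and 0.0689 without shControl replicate 1, 2 and 3, and 0.0564 without shZnf148 replicate 1, while the log2 fold change stayed between -0.50 and -0.39 in the alternatives tried. Which of both genes differed cannot be read from the joined row.

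The other TRAIL death receptor, TNFRSF10A, differed in the opposite direction. It stood at 10.3, 11.4 and 8.78 FPKM in shControl replicates 1 to 3 and at 13.0, 13.5 and 12.4 FPKM in shZnf148 replicates 1 to 3. The groups did not overlap, but the log2 fold change of 0.33 (SE 0.10, 95% interval 0.09 to 0.57) had an adjusted p of 0.0730.

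TNFRSF1A, the main receptor for TNF on most cells, was slightly lower in every shZnf148 library. Its level was 61.8, 64.7 and 59.1 FPKM in shControl and 53.7, 57.6 and 49.8 FPKM in shZnf148 replicates 1 to 3, a log2 fold change of -0.20 (SE 0.08, adjusted p = 0.111). PLEKHG5/TNFRSF25, which joins the TNFSF15 receptor with an exchange factor gene, stood at 7.04, 8.59 and 9.55 FPKM in shControl and at 5.11, 5.37 and 7.36 FPKM in shZnf148 replicates 1 to 3. Its groups overlapped, at a log2 fold change of -0.44 (SE 0.16, adjusted p = 0.104), and the joined row does not separate the receptor from PLEKHG5.

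NGFR, the neurotrophin receptor of the family, gave the most divided values. It stood at 0.453, 1.70 and 0.530 FPKM in shControl replicates 1 to 3 and at 4.32, 0.156 and 3.94 FPKM in shZnf148 replicates 1 to 3. Thus 2 shZnf148 libraries were above all control libraries, and shZnf148 replicate 2 was below them all. The log2 fold change was 0.78 (SE 0.61, 95% interval -0.66 to 2.22, adjusted p = 0.401). Without shZnf148 replicate 2 it was 1.496 with an adjusted p of 0.0304, the only setting in which a member row passed both thresholds. NGFR averaged 0.893 FPKM in shControl and passed the filter only through the high shZnf148 libraries, so that the filter favoured this direction. Over all its alternatives the adjusted p ran from 0.0304 to 0.711.

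The last 2 tested death domain receptors differed by less than the spread between replicates. FAS, the receptor of FASLG, stood at 3.89 ± 0.554 FPKM in shControl and 3.75 ± 0.345 FPKM in shZnf148 (log2 -0.04, 95% interval -0.33 to 0.25). TNFRSF21, which regulates neuronal and lymphocyte survival, stood at 98.1 ± 1.15 and 97.5 ± 5.72 FPKM (log2 -0.01, 95% interval -0.16 to 0.14).

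Beside the joined TNFRSF10D, decoy receptors were represented by TNFRSF11B and TNFRSF6B. TNFRSF11B encodes osteoprotegerin, a secreted decoy for the bone ligand RANKL and also for TRAIL. It stood at 2.98, 3.12 and 2.69 FPKM in shControl replicates 1 to 3 and at 3.71, 4.03 and 3.64 FPKM in shZnf148 replicates 1 to 3. The groups did not overlap, and the log2 fold change of 0.29 (SE 0.10, 95% interval 0.06 to 0.52) had an adjusted p of 0.0922. TNFRSF6B, a secreted decoy for FASLG, is joined with the DNA helicase gene RTEL1 and their readthrough transcript. That row ranged from 11.9 to 14.1 FPKM in shControl and from 13.3 to 17.8 FPKM in shZnf148 (log2 0.17, SE 0.13, adjusted p = 0.376).

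TNFRSF9 is the receptor of TNFSF9 and is best known on activated T cells. It passed the filter on low values only through the shZnf148 libraries, so its test favoured a higher value there. It stood at 0.910, 0.907 and 0.828 FPKM in shControl replicates 1 to 3 and at 1.29, 1.87 and 1.54 FPKM in shZnf148 replicates 1 to 3. No values overlapped, and the shZnf148 mean was 178% of the shControl mean. On the log2(FPKM + 1) scale the change was 0.44 (SE 0.13, 95% interval 0.12 to 0.76), with an adjusted p of 0.0718. With a pseudocount of 0.1 FPKM the log2 fold change was 0.75 and with 5 FPKM 0.16. Over its alternatives the adjusted p ran from 0.0405, without a variance trend, to 0.156.

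High-level receptors of this class were not separated between groups. TNFRSF12A stood at 136 ± 9.63 FPKM in shControl and 147 ± 18.8 FPKM in shZnf148 (log2 0.10, adjusted p = 0.518). CD40, the receptor through which T cells activate antigen-presenting cells, stood at 65.4 ± 4.14 and 58.7 ± 6.06 FPKM (log2 -0.16, adjusted p = 0.273). LTBR, the lymphotoxin receptor of lymphoid organ development, stood at 50.1 ± 1.86 and 47.3 ± 2.57 FPKM (log2 -0.08, adjusted p = 0.424). In each of the 3 the groups overlapped.

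TNFRSF14, the receptor HVEM, and TNFRSF1B, the second TNF receptor, had wide ranges. TNFRSF14 ran from 9.50 to 16.4 FPKM in shControl and from 10.1 to 17.0 FPKM in shZnf148, at a log2 fold change of 0.03 (SE 0.24). TNFRSF1B is joined with the microRNA MIR4632, and the row stood at 8.49, 8.77 and 7.87 FPKM in shControl and at 8.23, 18.3 and 6.11 FPKM in shZnf148 replicates 1 to 3. Its high value came from shZnf148 replicate 2 alone. The log2 fold change was 0.21 with that library and -0.21 without it, with adjusted p-values of 0.697 and 0.307.

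**Figure D2:**
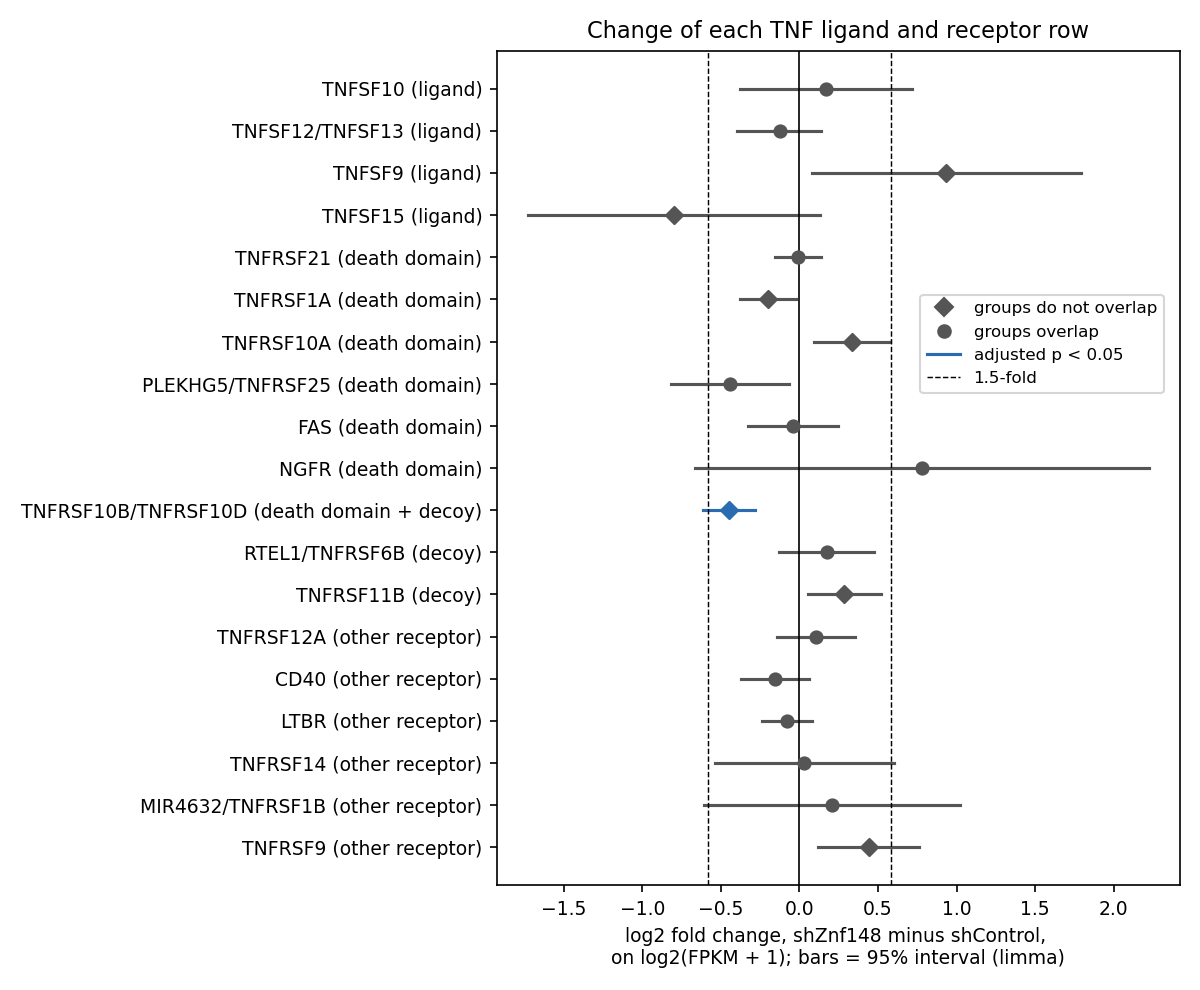
Log2 fold change of each tested member row (shZnf148 minus shControl, on log2(FPKM + 1)) with its 95% interval from limma, diamonds where the groups do not overlap, and dashed lines at 1.5-fold. TNFRSF10B/TNFRSF10D (blue, -0.45) alone has an adjusted p under 0.05, while the rows beyond the 1.5-fold lines, TNFSF9, TNFSF15 and NGFR, have the widest intervals.

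A total of 42 member rows averaged below 1 FPKM, and 17 of them were above 0 in at least 1 library. Among these, 4 reached 1 FPKM in a library: LOC254896/TNFRSF10C (a decoy for TRAIL, 0.350 to 1.52 FPKM), TNFRSF18, TNFRSF11A (the RANKL receptor, 0.412 to 1.13 FPKM) and TNFSF4. The groups did not overlap in 3 of the 17 rows, beside 14.9% of all rows under the filter and above 0 in a library. They are described from the alternative fit without a filter on low values, in which no member row was called. TNFRSF18, the T cell receptor GITR, stood at 1.38, 0.917 and 1.498 FPKM in shControl and at 0.305, 0.806 and 0.428 FPKM in shZnf148 replicates 1 to 3 (adjusted p = 0.0756). TNFSF4, the T cell costimulatory ligand, stood at 0.511, 0.313 and 0.356 FPKM in shControl and at 0.875, 1.46 and 0.846 FPKM in shZnf148 replicates 1 to 3 (adjusted p = 0.0575). TNFRSF19, the receptor TROY, stood at 0.761, 0.621 and 0.589 FPKM in shControl and at 0.418, 0.126 and 0.293 FPKM in shZnf148 replicates 1 to 3 (adjusted p = 0.0674). TNFSF4 was thus higher and the other 2 lower in every shZnf148 library, at levels where few reads can lie behind a value.

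TNFRSF13C, the BAFF receptor of B cells, ranged from 0.272 to 0.921 FPKM. The members TNFSF8, TNFRSF8, TNFSF14, TNFRSF4, CD27, CD70, TNFSF18, TNFSF13B and TNFRSF17 each reached 0.1 FPKM in at least 1 library and none exceeded 0.343 FPKM. FASLG and EDAR stayed below 0.1 FPKM, with a value above 0 in 1 library each.

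**Figure D3:**
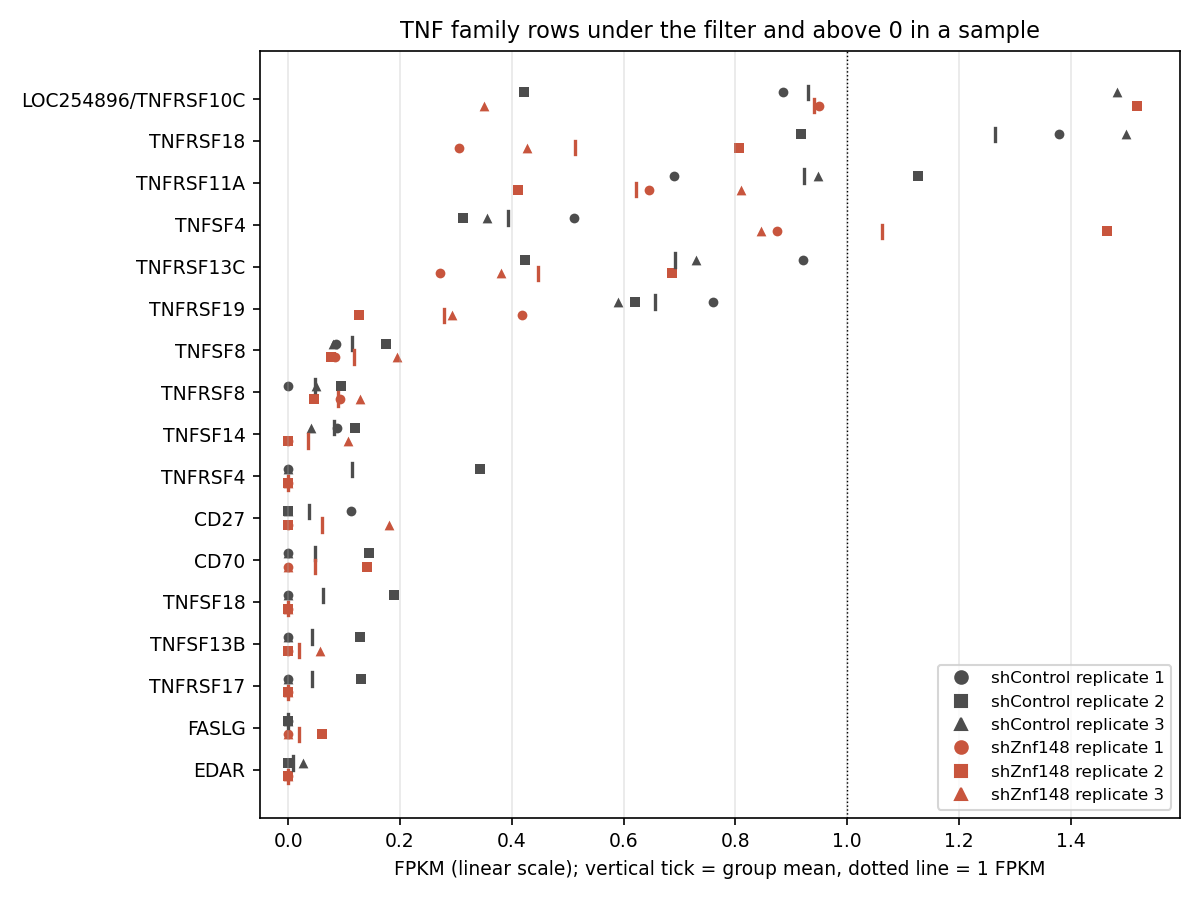
Levels of the 17 member rows under the filter and above 0 in a library, in FPKM on a linear axis, with a point per library (grey shControl, red shZnf148) and a tick at each group mean. TNFRSF18 and TNFRSF19 are lower and TNFSF4 higher in all 3 shZnf148 libraries, and most of the other rows lie at or near 0.

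The remaining 25 member rows were listed at 0 in all 6 libraries. They were TNFRSF13B, TNFSF11 (the ligand RANKL) and 23 rows of TNF, LTA and LTB, which the table lists 8, 7 and 8 times. These 3 genes lie in the major histocompatibility region of chromosome 6, which genome builds hold in several copies. Other genes of that region were listed in the same way. DAXX, a broadly expressed gene, had 5 rows that did not exceed 0.0932 FPKM, and 5 of the 6 rows of IER3 were at 0 while the other stood at 4.27 to 7.25 FPKM. For TNF, LTA and LTB it can therefore only be said that they are listed at 0.

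Further family genes that the symbol rule leaves out were also read. RELT, a receptor that carries no TNFRSF symbol in the table, stood at 6.49 ± 0.434 FPKM in shControl and 7.32 ± 0.450 FPKM in shZnf148. Its groups did not overlap, but the log2 fold change of 0.15 had an adjusted p of 0.262. EDA did not exceed 0.0549 FPKM, and EDA2R and CD40LG, the ligand of CD40, were listed at 0.

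Pathway genes downstream of the receptors were described from 4 lists, which together held 61 tested rows. Of these, 5 were called, 2 higher, among them MAP3K14, and 3 lower (CRADD, ICAM1 and SOD2), beside 5.49% of all tested rows, and 12 had an adjusted p under 0.05, beside 13.6%. The median log2 fold change over the lists was 0.019. Without shControl replicate 1, 2 or 3 the number called was 2, 3 or 1. Without shZnf148 replicate 1 it was 3, and without shZnf148 replicate 2 or 3 it stayed at 5.

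Adaptors and ubiquitin enzymes, which assemble the receptor complexes, had 1 call in 27 tested rows. MAP3K14 (the kinase NIK, which starts the noncanonical NF-kB pathway below CD40, LTBR and TNFRSF12A) stood at 7.36, 8.77 and 8.02 FPKM in shControl replicates 1 to 3 and at 15.6, 14.1 and 11.6 FPKM in shZnf148 replicates 1 to 3. It rose by log2 0.70 (SE 0.12, adjusted p = 0.0210). With the replicate number as a block its adjusted p was 0.0574, without shControl replicate 1, 2 or 3 it was 0.0957, 0.0593 or 0.0922, and without shZnf148 replicate 1 it was 0.0598. With a pseudocount of 5 FPKM its log2 fold change was 0.52, under the fold threshold. TRAF1 (log2 0.44, adjusted p = 0.0655) and RIPK1 (log2 0.41, adjusted p = 0.121) were not called. FADD and EDARADD, named here after their values were seen, passed the adjusted p but not the fold threshold. FADD, the adaptor of the TRAIL receptors and FAS, had a mean of 26.6 FPKM in shControl and 33.1 FPKM in shZnf148 (adjusted p = 0.0305). EDARADD, the adaptor of EDAR, had 155 and 125 FPKM (adjusted p = 0.0364), although EDAR itself did not exceed 0.0266 FPKM.

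Death effectors had 2 calls in 16 tested rows, in opposite directions, and 11 rows higher against 5 lower. CRADD, a death domain adaptor for caspase-2, stood at 4.43, 5.94 and 5.35 FPKM in shControl and at 2.12, 2.14 and 1.98 FPKM in shZnf148, a fall of log2 -1.01 (SE 0.12, adjusted p = 0.0106), with an adjusted p of 0.0690 without shControl replicate 3 and a log2 fold change of -0.53, under the fold threshold, with a pseudocount of 5 FPKM.

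The CRADD groups did not overlap. APAF1, the apoptosome scaffold, was higher by log2 0.48 (adjusted p = 0.0445). CASP8 and CASP6, named after their values were seen, were higher by log2 0.43 and 0.35, with adjusted p-values of 0.0478 and 0.0356. All 3 passed the adjusted p but not the fold threshold. CFLAR, the inhibitor that competes with caspase-8 for FADD, stood at 41.7, 49.1 and 44.9 FPKM in shControl and at 34.4, 24.0 and 33.9 FPKM in shZnf148 replicates 1 to 3. Its log2 fold change of -0.56 had an adjusted p of 0.0510 and was not called. The necroptosis kinase RIPK3 did not exceed 0.120 FPKM.

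Enzymes that cut ligands and receptors from the membrane, or mature those enzymes, had no call in 7 tested rows. RHBDF2, a rhomboid protein that carries ADAM17 to the surface, was lower by log2 -0.37 (adjusted p = 0.0301), below the fold threshold. FURIN was higher by log2 0.22 (adjusted p = 0.0521).

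Genes that TNF is known to induce had 2 calls in 16 tested rows, both lower, while 10 rows were higher and 6 lower and the list median was 0.041. ICAM1, an adhesion molecule, stood at 128, 131 and 117 FPKM in shControl replicates 1 to 3 and at 65.1, 54.3 and 60.4 FPKM in shZnf148 replicates 1 to 3. It fell by 1.05 on the log2 scale (SE 0.09, adjusted p = 0.00529), and its adjusted p did not exceed 0.0467 in any alternative. SOD2, the mitochondrial superoxide dismutase, stood at 59.0, 69.6 and 50.7 FPKM in shControl and at 35.3, 31.3 and 31.8 FPKM in shZnf148, a fall of log2 -0.84 (SE 0.12, adjusted p = 0.0150). Without shControl replicate 1 or 3 its adjusted p was 0.0847 or 0.0543. KYNU differed by log2 0.49 (adjusted p = 0.369) with overlapping groups, and VCAM1 and TNFAIP6 stayed below 0.1 FPKM. The list shares 5 tested rows with the lists above, namely CFLAR, TRAF1, BIRC2/BIRC3, TNFAIP3 and TNIP1.

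**Figure D4:**
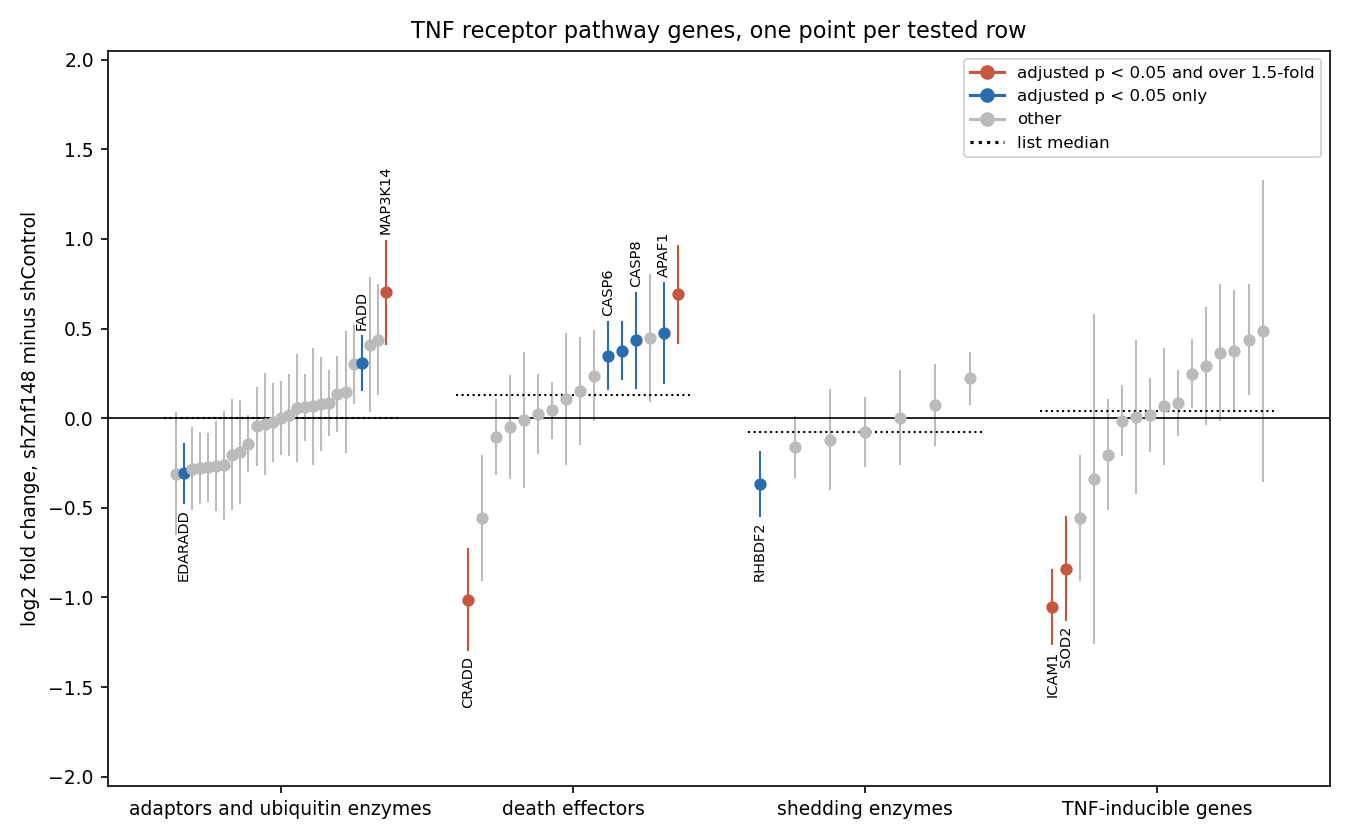
Log2 fold change (shZnf148 minus shControl) of each tested pathway row with its 95% interval, by list, with called rows in red, rows with an adjusted p under 0.05 only in blue and dotted lines at the list medians. Rows named in the text are labelled where the adjusted p was under 0.05, with MAP3K14 above 0 and CRADD, ICAM1 and SOD2 below 0 among the called rows, and the medians lie between -0.076 and 0.129.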

How the data were processed

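RNA-seq of 3 shControl and 3 shZnf148 libraries was analysed. The values deposited by the authors are FPKM, in 1 table that holds the 6 libraries as columns, of which 0 were unused. The submitters' processing notes name bcl2fastq 2.17.1.14, TopHat2 2.0.14, Cufflinks 2.2.1 and Cuffnorm 2.2.1, with the builds hg18 and hg19, while the methods of the study name Salmon, GRCh38 and DESeq2. Which of these gave the FPKM values is not settled, and FPKM values carry no read number. From the steps between low values, relative depth was 0.806 to 1.13 of that of shControl replicate 1. Summed FPKM ranged from 469594 to 507312 per library.

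The 11777 of 24108 rows averaging 1 FPKM or more were fitted as log2(FPKM + 1) with limma 3.58.1 in R 4.3.3, with a variance trend and Benjamini-Hochberg adjustment over all of them. Exact two-sided permutation tests cannot give less than 0.1 with 3 libraries against 3, and gave 0.1 wherever groups did not overlap. A joined row lists several symbols, and its level cannot be divided between them. All tested member rows were named, lower ones if they reached 0.1 FPKM. Of each pathway list, called rows and the 2 uncalled rows with the largest change were named. A few genes covered by these rules are not reported here and stay in the counts. Members and lists were chosen with earlier results of these data known. The fit was tested on simulated data. Alternatives changed the filter (none, 5 FPKM), pseudocount (0.1, 5 FPKM), scaling (quantile, median ratio), variance trend, replicate block, summing of rows that share a symbol, fold threshold, and left out each replicate. Python 3.11.15, numpy 2.4.6, pandas 2.3.3 and matplotlib 3.10.9 were used for the rest.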

Additional observations from a re-analysis of the deposited data

How the results depend on the processing

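Over the single genes, 363 of the alternative values kept their direction and side of the thresholds, 18 lost a call, 2 gained one and 10 changed sign. Only ZNF148 and the called pathway rows could lose a call, while most of these values are of member rows, none of which was called at first. Rows called over the whole table numbered 647, and 280 with a pseudocount of 5 FPKM, 315 with the replicate block and 1600 by adjusted p alone, with a range of 22 to 566 when 1 replicate was left out. Member rows called numbered 0, and 1 by adjusted p alone, with a range of 0 to 1 when 1 replicate was left out, where NGFR was called without shZnf148 replicate 2. Pathway rows called numbered 5, and 2 with a pseudocount of 5 FPKM, 3 with the replicate block and 12 by adjusted p alone, with a range of 1 to 5 when 1 replicate was left out. The smaller number of samples or the larger pseudocount enters these settings by construction, and other causes were not tested.

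Sign changes were confined to rows near 0 or resting on shZnf148 replicate 2. Quantile normalization gave TNFRSF21 a log2 fold change of 0.052. When 1 replicate was left out, log2 fold changes ranged from -0.124 to 0.041 for FAS, -0.055 to 0.026 for TNFRSF21, -0.18 to 0.23 for TNFRSF14, -0.014 to 0.393 for TNFSF10 and -0.21 to 0.51 for MIR4632/TNFRSF1B. Over all tested rows the deviations of same-numbered libraries correlated at 0.00104, -0.0881 and 0.0304, so the replicate numbers were not taken to pair the samples, although TNFSF10 and ERBB2/MIR4728 were highest in replicate 2 of both groups. With the replicate block the adjusted p of TNFSF10 was 0.197. That of TNFRSF10B/TNFRSF10D was 0.05002. Quantile and median-ratio scaling moved the median of all tested rows to 0.0217 and 0.003. Depth is not known in reads, which limits what can be said of rows under 1 FPKM.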
